A study of Mus musculus with 6 samples.

Results

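Nr3c1, the gene of the glucocorticoid receptor, and 6 genes known as its direct targets, Tsc22d3, Fkbp5, Klf9, Sgk1, Dusp1 and Zbtb16, were examined in cultured mouse bone marrow cells with and without the cryptochromes. Every probe set listed with 1 of these 7 symbols alone was taken, which gave 25 of the 45037 probe sets on the array that were not controls, 7 genes of 18193. The cells of the knockout group, DKO, carried the genotype Cry 1/2 double KO, and those of the control group, WT, were wild-type, both of strain C57BL/6. Both were grown in Iscove's medium with 20% fetal bovine serum and interleukin-7 at 10 ng/ml, a cytokine that sustains early B lymphocytes. Total RNA of each sample was labelled with biotin and read on an oligonucleotide array as 1 signal per probe set, with 3 arrays per genotype, DKO 1 to DKO 3 and WT 1 to WT 3. No added glucocorticoid is named in the labels. The sources used here give neither the age of the animals, nor how the alleles were made, nor the time of day of harvest. Nor do they say whether each array stands for its own animal or culture. P-values here cover the spread among these arrays alone, which may be technical. The number of arrays limits the precision.

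The glucocorticoid receptor is held in the cytoplasm by chaperones until it binds its steroid hormone, then enters the nucleus, binds DNA at palindromic response elements and raises the transcription of its targets. It also represses inflammatory genes, and in lymphoid precursors strong stimulation causes death. In mouse cells the cryptochromes, which repress transcription within the circadian clock, are known to bind the receptor and to restrain its activity. The comparison of DKO with WT cells addresses whether transcripts of the receptor or its targets differ without them.

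The sequences upstream of 3 targets are shown because they hold elements of the receptor, of the clock or of cAMP signalling within 250 bases before an annotated start. They are from RefSeq, build GRCm38.p6, in the direction of transcription. The sequence before 1 of the starts of Sgk1 lies at chr10:21993640-21993889 on the + strand, that of Dusp1 at chr17:26508473-26508722 on the - strand and that of Fkbp5 at chr17:28486150-28486399 on the - strand. Capitals mark the palindromic element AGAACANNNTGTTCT of the receptor, the E-box CACGTG that CLOCK and BMAL1 bind, and the cAMP response element TGACGTCA.
Sgk1: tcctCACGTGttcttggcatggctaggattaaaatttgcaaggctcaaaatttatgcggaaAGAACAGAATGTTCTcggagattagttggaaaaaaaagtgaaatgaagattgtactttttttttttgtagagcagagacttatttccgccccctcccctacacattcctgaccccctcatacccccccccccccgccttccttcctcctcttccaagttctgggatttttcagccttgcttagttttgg
Dusp1: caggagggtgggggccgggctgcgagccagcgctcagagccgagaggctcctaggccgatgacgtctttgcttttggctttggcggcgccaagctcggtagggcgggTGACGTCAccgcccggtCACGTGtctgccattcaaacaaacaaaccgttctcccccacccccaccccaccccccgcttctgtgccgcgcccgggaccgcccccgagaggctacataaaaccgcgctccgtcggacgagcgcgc
Fkbp5: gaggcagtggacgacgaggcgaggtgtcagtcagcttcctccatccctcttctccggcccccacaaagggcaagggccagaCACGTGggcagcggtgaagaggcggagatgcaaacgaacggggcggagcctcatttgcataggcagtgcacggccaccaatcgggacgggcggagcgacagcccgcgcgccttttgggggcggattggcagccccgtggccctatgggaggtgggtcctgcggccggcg

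The table of starts held 12 such windows for 5 targets, Tsc22d3, Fkbp5, Klf9, Sgk1 and Dusp1. Each motif was searched on both strands, and the E-box and the cAMP response element do not overlap the receptor element in these windows. The full receptor element was found in 1 of the 12 windows, that of Sgk1 shown above, beginning 189 bases before the start, and in 0.00913% of all 32851 windows of the table. Its half-site AGAACA, which is contained in the full element, was found in 4 of the 12 windows, of Sgk1 and Tsc22d3, and in 16.1% of all. The E-box was found in 3, in those of Sgk1, Dusp1 and Fkbp5, and in 6.02% of all. The cAMP response element was found in 1, that of Dusp1, and in 1.55% of all. Windows of 1 gene do not overlap, but several of the 12 belong to Sgk1 or Tsc22d3. A match is a description of these letters.

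WT 2 stood apart from the other 5 arrays. Its 3' to 5' signal ratio for Actb was 824, against 1.47 to 2.05 elsewhere, its correlation with them across probe sets was 0.752 to 0.780, and those among the others were 0.936 to 0.984. Before centring, its median log2 signal was 7.04 against 5.91 to 6.16. Values below are deposited signals, and differences are on log2(signal + 16) after each array was centred on its median, so a difference understates the change of dim probe sets. Centring lowers WT 2 relative to its deposited signals, and each difference is therefore given without WT 2 too. Cry1 read 359, 399 and 545 in DKO 1 to 3, against 1533, 1502 and 955 in WT 1 to 3. Cry2 read 162, 178 and 133 in DKO 1 to 3, against 145, 102 and 105 in WT 1 to 3. Cry1 differed by -1.26 on the log2 scale (-1.48 without WT 2) and Cry2 by 0.70 (0.29 without WT 2), both with a limma adjusted p of 0.822 over all 6 arrays. Where these probe sets lie relative to the deletions was not analysed here.

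No probe set of the receptor or its targets passed the threshold. Of the 25 probe sets, 18 had a mean signal over the 6 arrays above the filter at percentile 40 and were tested, at least 1 for each gene, and 0 of these 18 were called higher or lower by limma at an adjusted p under 0.05. Over all 27022 probe sets tested, 2 were called, 0.0074%. At an unadjusted p under 0.05, 0 of the 18 were counted, where 3.12% of all tested probe sets were. The smallest unadjusted p among the 18 was 0.107 and the smallest adjusted p was 0.822. Without WT 2, 0 of the 18 were called, where 0.0259% of all were (0.0185% higher in DKO), and the smallest adjusted p was 0.948. At an unadjusted p under 0.05, 0 of the 18 were counted without WT 2 and 4.35% of all. The groups overlapped in all 18, where they did not overlap in 10.3% of all tested probe sets, or in 18.5% without WT 2.

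The mean signal was higher in DKO in 17 of the 18 probe sets after centring on the median, in 15 after quantile normalization and in 12 with no centring or with centring over the tested probe sets. It was higher in 64.9% of all tested probe sets, 48.9% after quantile normalization and 43.5% with no centring. The median log2 difference of the 18 was 0.50, beside 0.21 for all tested probe sets. It was 0.15 after quantile normalization (-0.02 for all) and 0.19 with no centring (-0.10 for all). Without WT 2, 16 of the 18 were higher in DKO, with a median of 0.16 beside -0.02 for all, of which 47.4% were higher. By gene, taken as the probe set of highest mean signal, all 7 had a higher centred mean in DKO, Zbtb16 by only 0.01 (SE 0.27). Their median was 0.59 beside 0.30 for the 12627 genes tested, of which 70.2% were higher. The median of the 7 was 0.15 after quantile normalization and 0.28 with no centring. Without WT 2 all 7 were still higher, with a median of 0.34 beside 0.01, where 51.7% of all genes were higher. With no centring or centring over the tested probe sets, 6 of the 7 were higher, with Zbtb16 on the other side. The count was also 6 without DKO 2 and without WT 1, with Zbtb16 lower, and without both WT 2 and DKO 3, with Fkbp5 lower. After centring, WT 2 was the lowest of the 6 arrays in 11 of the 18, 61.1%, and in 53.4% of all tested probe sets. The 18 probe sets are not independent, since several share a gene.

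**Figure D1:**
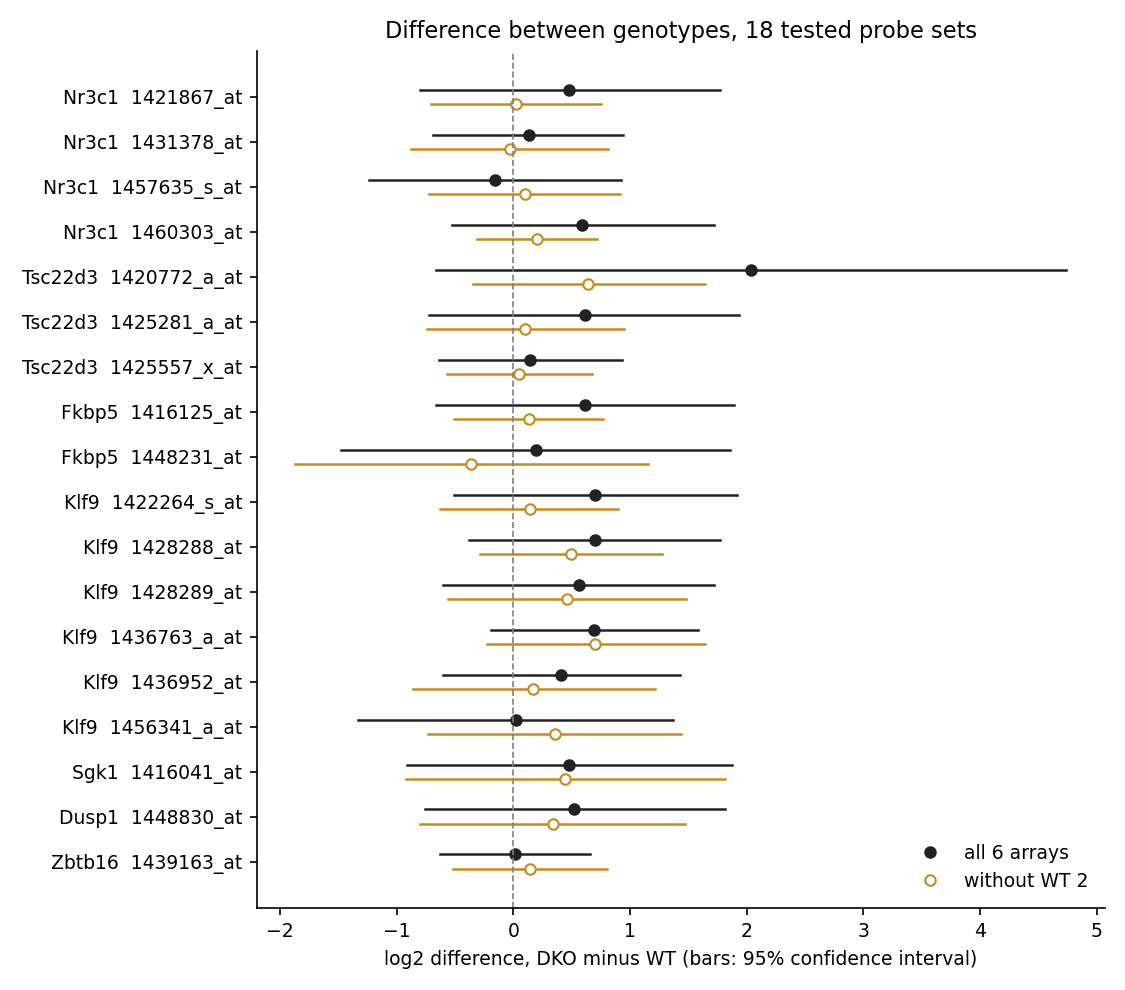
Log2 difference, DKO minus WT, of each of the 18 tested probe sets (rows), with all 6 arrays (filled points) and without WT 2 (open points). Bars are 95% confidence intervals from limma, and each of them spans 0.

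Nr3c1 was read on every array, and none of its probe sets passed the test. Its brightest probe set, 1460303_at, read 1812, 1585 and 1181 in DKO 1 to 3, against 1438, 1133 and 1154 in WT 1 to 3. DKO 3 lay within the range of the WT arrays, and DKO 1 and DKO 2 lay above it. The centred log2 values averaged 4.51 ± 0.18 in DKO and 3.91 ± 0.68 in WT (SD, n = 3 each). Their difference was 0.59 (SE 0.48, 95% confidence interval -0.53 to 1.72, limma adjusted p 0.822). Without WT 2 it was 0.20 with an interval of -0.31 to 0.72, and after quantile normalization of all 6 arrays it was 0.13.

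The other tested probe sets of Nr3c1 did not share 1 direction. Probe set 1421867_at read 1238, 1154 and 751 in DKO 1 to 3, against 1403, 751 and 706 in WT 1 to 3, with the highest value on WT 1. Its log2 difference was 0.48, and 0.02 without WT 2. Probe set 1457635_s_at read 679, 557 and 278 in DKO 1 to 3, against 513, 1503 and 371 in WT 1 to 3, so that WT 2 was highest on this probe set of the same gene. Its log2 difference was -0.16, and 0.10 without WT 2. The dim probe set 1431378_at differed by 0.13, and by -0.03 without WT 2. Probe sets 1421866_at and 1453860_s_at, at 7.38 to 51.0 on all arrays, were below the filter and were not tested.

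**Figure D2:**
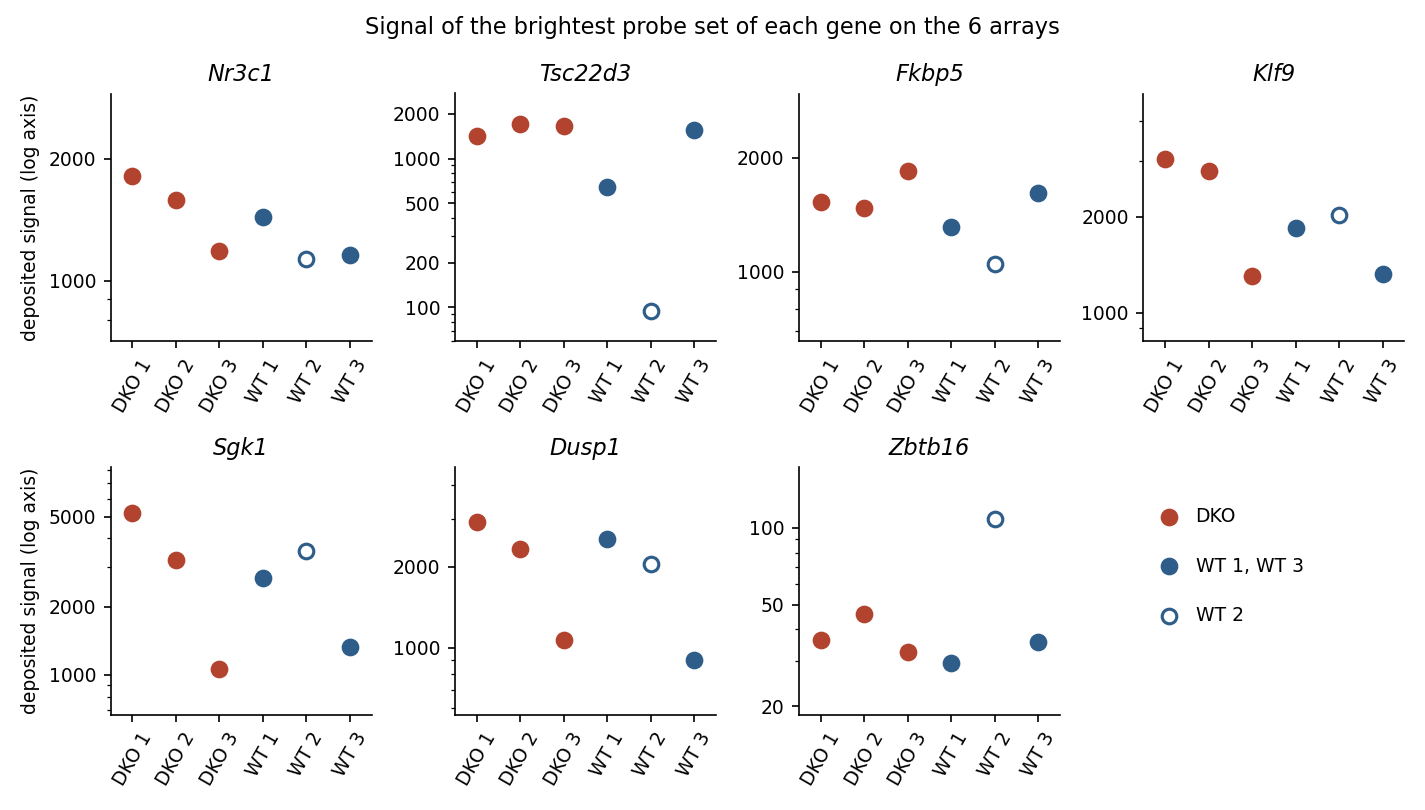
Deposited signal (log axis) of the probe set of highest mean signal of each of the 7 genes, on DKO 1 to 3 (red) and WT 1 to 3 (blue), 1 point per array, with WT 2 as an open point. Tsc22d3 on WT 2 stands at 94.9, and Sgk1, Dusp1 and Klf9 are lower on DKO 3 and WT 3 than on the other arrays.

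Tsc22d3 encodes GILZ, a leucine zipper protein that mediates anti-inflammatory actions of glucocorticoids. Its brightest probe set, 1420772_a_at, read 1417, 1707 and 1650 in DKO 1 to 3, against 640, 94.9 and 1547 in WT 1 to 3. The DKO arrays were close together, WT 3 was among them, and WT 1 and WT 2 were lower. The centred log2 values averaged 4.58 ± 0.24 in DKO and 2.54 ± 2.52 in WT (SD, n = 3 each). Their difference was 2.04 (SE 1.15, interval -0.66 to 4.74, limma adjusted p 0.822). Without WT 2 it was 0.64 (SE 0.42, limma adjusted p 0.948). With 1 array or 2 arrays left out it ranged from 0.54 to 3.09.

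The 2 other tested probe sets of Tsc22d3 did not show a difference of that size. Probe set 1425281_a_at read 434, 607 and 684 in DKO 1 to 3, against 427, 359 and 629 in WT 1 to 3, a log2 difference of 0.61, and 0.10 without WT 2. Probe set 1425557_x_at read 303, 289 and 234 in DKO 1 to 3, against 233, 433 and 293 in WT 1 to 3, a difference of 0.14, and 0.05 without WT 2, that turned to -0.27 after quantile normalization and to -0.17 with no centring. In deposited signal, 1 of these probe sets of Tsc22d3 had its highest value on WT 2 and the other its lowest. After centring WT 2 was the lowest array on both, at 1.77 for 1425557_x_at and 1.51 for 1425281_a_at. Probe set 1444365_at, at 3.04 to 54.6, was not tested.

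Fkbp5 encodes FKBP51, a cochaperone that lowers the affinity of the receptor for hormone and so forms a negative feedback. Probe set 1416125_at read 1534, 1479 and 1848 in DKO 1 to 3, against 1313, 1050 and 1611 in WT 1 to 3. Within each genotype the array numbered 3 was highest, and WT 3 lay above DKO 1 and DKO 2. The centred log2 values averaged 4.61 ± 0.30 in DKO and 3.99 ± 0.87 in WT (SD, n = 3 each). They differed by 0.61 (interval -0.66 to 1.89, limma adjusted p 0.822), and by 0.13 without WT 2 (interval -0.51 to 0.77) or 0.15 after quantile normalization. The dimmer probe set 1448231_at read 55.4, 168 and 190 in DKO 1 to 3, against 95.9, 94.7 and 263 in WT 1 to 3, a difference of 0.19, and -0.36 without WT 2. Probe set 1447736_at, at 0.41 to 10.5, was not tested.

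Klf9 encodes a Krüppel-like transcription factor that represses other genes and that the receptor and the clock are both known to induce. Probe set 1428288_at read 3045, 2781 and 1305 in DKO 1 to 3, against 1841, 2027 and 1325 in WT 1 to 3. In deposited signal DKO 1 and DKO 2 lay above every WT array and DKO 3 lay below every one. The centred log2 values averaged 5.07 ± 0.53 in DKO and 4.37 ± 0.39 in WT (SD, n = 3 each). They differed by 0.70 (SE 0.46, limma adjusted p 0.822), by 0.49 without WT 2 and by 0.30 after quantile normalization. Probe set 1436763_a_at, with the smallest p of the 18, read 226, 171 and 80.5 in DKO 1 to 3, against 115, 186 and 58.9 in WT 1 to 3. Its difference was 0.69 with an interval of -0.19 to 1.58, and 0.70 without WT 2.

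The 4 remaining tested probe sets of Klf9 differed by 0.02 to 0.70, and by 0.14 to 0.46 without WT 2. Among them 1456341_a_at read 2240, 1691 and 677 in DKO 1 to 3, against 1450, 4267 and 767 in WT 1 to 3. WT 2 was highest on it, and its difference of 0.02 turned to -0.30 after quantile normalization and was 0.36 without WT 2. With no centring it was -0.29. Probe set 1452723_at, at 5.37 to 118, was not tested.

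Sgk1 encodes a serine and threonine kinase that acts on ion transport and cell survival. Its single probe set read 5174, 3213 and 1063 in DKO 1 to 3, against 2684, 3508 and 1331 in WT 1 to 3. DKO 1 was the highest and DKO 3 the lowest of the 6 arrays, so the DKO values enclosed those of WT. The centred log2 values averaged 5.29 ± 1.03 in DKO and 4.82 ± 0.42 in WT (SD, n = 3 each). They differed by 0.48 (SE 0.59, interval -0.91 to 1.87, limma adjusted p 0.824). The DKO arrays covered a range of 2.02 on the log2 scale, against 0.83 for the WT arrays. Without WT 2 the difference was 0.44. It was 0.03 without DKO 1, 0.29 without WT 3 and 1.04 without DKO 3, and 0.17 over all 6 arrays after quantile normalization.

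Dusp1 encodes a phosphatase that switches off MAP kinases. Its probe set read 2924, 2325 and 1070 in DKO 1 to 3, against 2534, 2051 and 903 in WT 1 to 3. In deposited signal the array numbered 3 was far below the other arrays of its genotype. After centring WT 3 (3.89) was close to WT 2 (3.98), and WT 1 stood at 5.18. The groups overlapped almost throughout. The centred log2 values averaged 4.87 ± 0.62 in DKO and 4.35 ± 0.72 in WT (SD, n = 3 each). They differed by 0.52 (interval -0.76 to 1.81, limma adjusted p 0.822), and by 0.34 without WT 2. With 1 array or both WT 2 and DKO 3 left out the difference was 0.27 (without DKO 1) to 0.94 (without WT 1), and after quantile normalization it was 0.12.

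Zbtb16 encodes PLZF, a zinc finger factor of innate-like lymphocytes and of myeloid progenitors. Its tested probe set was dim, at 36.4, 45.8 and 32.4 in DKO 1 to 3, against 29.6, 108 and 35.6 in WT 1 to 3. WT 2 had the highest signal, and after centring the difference was 0.01 with an interval of -0.63 to 0.66, and 0.14 without WT 2. With no centring it was -0.30. The 2 other probe sets read 4.13 to 34.3 in DKO and 1.81 to 23.4 in WT, and were below the filter. On 1 of them, 1419874_x_at, centred values of the genotypes did not overlap, though DKO 2 and WT 3 both rounded to -1.79. Its signals were 21.6, 4.27 and 4.13 in DKO 1 to 3, against 1.81, 5.51 and 1.98 in WT 1 to 3. Probe set 1419874_x_at was not tested, and the groups did not overlap in 10.3% of all tested probe sets.

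Several members also differed between arrays of 1 genotype, in an order that was noticed after their values were seen. In 10 of the 18 tested probe sets DKO 3 was the lowest DKO array and WT 3 lay below WT 1, where 17.7% of all tested probe sets had this order. These 10 were the single probe sets of Sgk1 and Dusp1, 5 of the 6 of Klf9 and 3 of the 4 of Nr3c1. On the log2 scale Sgk1 differed by -1.69 between DKO 3 and the mean of DKO 1 and DKO 2, and by -0.83 between WT 3 and WT 1. For Dusp1 these values were -1.04 and -1.29, and for Klf9 (1428288_at) -0.91 and -0.29. Fkbp5 (1416125_at) had the opposite signs, at 0.53 and 0.47, as did Tsc22d3 (1420772_a_at), at 0.32 and 1.43. The targets therefore did not share 1 direction between these arrays.

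**Figure D3:**
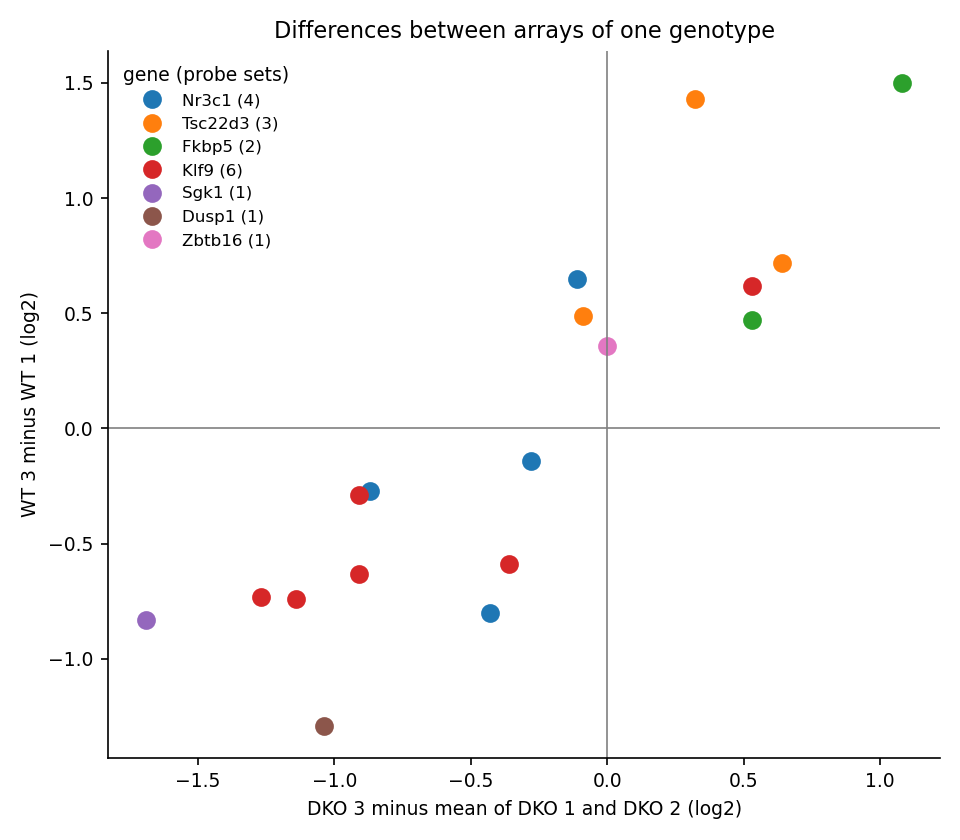
Log2 difference between DKO 3 and the mean of DKO 1 and DKO 2 (horizontal axis) and between WT 3 and WT 1 (vertical axis), 1 point for each of the 18 tested probe sets, coloured by gene. Sgk1, Dusp1, 5 probe sets of Klf9 and 3 of Nr3c1 lie below 0 on both axes, and both probe sets of Fkbp5 lie above 0 on both.

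Markers of other cells also differed between these arrays. In a bulk culture, fewer cells of a type and less RNA per cell cannot be told apart. The summed signal of 9 mast cell and basophil markers was 2492, 2264 and 347 in DKO 1 to 3, against 1407, 1099 and 379 in WT 1 to 3, with the arrays numbered 3 lowest as for Sgk1 and Dusp1. Kit, the stem cell factor receptor and the brightest of them, read 892, 989 and 86.3 in DKO 1 to 3, against 906, 283 and 160 in WT 1 to 3. Granulocyte markers, 11 in all, summed to 604, 583 and 27687 in DKO 1 to 3, against 75677, 178761 and 19169 in WT 1 to 3. For S100a8, a calgranulin of neutrophils and the brightest of them, the range was 186 to 10377 in DKO and 8306 to 94059 in WT. Macrophage and monocyte markers, 11 in all and led by Lyz2, summed to 9510 to 21277 in DKO and 12944 to 59145 in WT. The 11 lymphoid markers outside the B lineage (T, NK and innate cells) were led by Nkg7. They summed to 860, 1427 and 287 in DKO 1 to 3, against 322, 1087 and 293 in WT 1 to 3. In this sum the array numbered 3 was lowest in each genotype, with WT 1 close to WT 3. After centring, the median of the 7 tested markers, each against its own mean, was lowest on WT 1. It was -0.75 there, beside -0.57 on WT 3 and -0.53 on DKO 3. The 10 markers of pro-B and pre-B cells were led by Igll1 of the surrogate light chain, at 14442 to 28090 in DKO and 15222 to 58291 in WT. They summed to 105625, 109558 and 66582 in DKO 1 to 3, against 71371, 136347 and 72627 in WT 1 to 3. Transcripts of early B cells were therefore present on every array, and in this sum DKO 3 was the lowest DKO array and WT 3 just above WT 1. Single genes in the sum did not share 1 direction. Dntt read 10162, 10083 and 1079 in DKO 1 to 3, against 1314, 3466 and 495 in WT 1 to 3. Rag1 read 1513, 1200 and 2472 in DKO 1 to 3, against 2855, 844 and 4053 in WT 1 to 3. Stromal and endothelial markers, 12 led by Pecam1, summed to 622 to 1183 in DKO and 709 to 1245 in WT. The 7 plasma cell genes, led by Xbp1, summed to 30811 to 55950 in DKO and 26933 to 40153 in WT, and of the tested markers of these 7 cell types limma called 1 plasma cell gene, Igha, higher in DKO, and none after quantile normalization. No marker was listed at 0, and the part of other cell types in the values of Sgk1, Dusp1, Klf9 and Nr3c1 was not tested.

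Among 12620 other tested genes, those with a profile most like that of Nr3c1 over the 6 arrays, by the root mean square difference of log2 values each taken against its own mean, were Zgpat (0.035), Abl2 (0.060) and Erc1 (0.062). For Sgk1, the only target whose brightest probe set varied by over 2 on the log2 scale among the 5 arrays other than WT 2, they were Gpam (0.139), Fndc3b (0.163) and Otos (0.166). With 6 arrays, of which WT 2 stands apart, such likeness is a description.

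The proteins that hold, load and supply the receptor showed no called gene. Of 16 genes for chaperones and hormone handling, 10 were tested and 0 were called in either direction, where 0.00792% of all genes tested were. Of the 10, 7 were higher in DKO (median 0.47 on the log2 scale), and 2 without WT 2 (median -0.18), where 0.0158% of all genes were called and none of these. Over all genes tested 70.2% were higher in DKO (median 0.30), and 51.7% without WT 2 (median 0.01). Hsd11b1, the enzyme that regenerates active glucocorticoid, read 303, 382 and 253 in DKO 1 to 3, against 234, 314 and 238 in WT 1 to 3, and differed by 0.55 (SE 0.35), or by 0.35 without WT 2. Hspa8, a constitutive heat shock chaperone, differed by -0.29 (-0.03 without WT 2). Stip1, which links the HSP70 and HSP90 chaperones, differed by 1.37, and by -0.18 without WT 2. Its signal was 196 on WT 2 and 1701 to 3347 on the other arrays.

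Coregulators through which the receptor acts on chromatin had 14 genes tested, with 0 called, where 0.00792% of all genes tested were. Of these coregulators 13 were higher in DKO with a median of 0.53, beside 70.2% of all genes with a median of 0.30. Without WT 2, 10 were higher with a median of 0.14, beside 51.7% of all genes with a median of 0.01. Smarca4, the BRG1 ATPase of chromatin remodelling, read 19634, 17780 and 11075 in DKO 1 to 3, against 12611, 8302 and 11758 in WT 1 to 3. DKO 3 lay below WT 1 and WT 3, and the difference was 0.86, or 0.35 without WT 2. Smarcd1, a subunit of the same complexes, differed by 0.74 and Ehmt2, a histone methyltransferase, by 2.59. Without WT 2, where Ehmt2 read 18.9, they differed by 0.19 for Smarcd1 and 0.15 for Ehmt2.

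A wider list of genes known to be induced by glucocorticoids did not lie to 1 side. Of 28 tested, 0 were called, where 0.00792% of all genes tested were. Of the 28, 15 were higher and 13 lower in DKO, with a median of 0.14, beside 0.30 for all genes, of which 70.2% were higher. Without WT 2, 14 were on each side, and after quantile normalization 10 were higher. The 3 genes with the smallest p were all lower in DKO. Cebpd, a transcription factor of inflammation and differentiation, read 59.8, 31.0 and 107 in DKO 1 to 3, against 405, 539 and 79.0 in WT 1 to 3, and differed by -1.57 (SE 0.62, limma adjusted p 0.822), or by -1.41 without WT 2. DKO 3 lay above WT 3. Il1r2, the decoy receptor of interleukin-1, differed by -0.85 (-0.72 without WT 2), and Irs2, an adaptor of insulin signalling, by -1.07 (-1.29 without WT 2). Per1 on the same list was not among the 3 genes with the smallest p and is named because it is a clock gene. It read 624, 522 and 511 in DKO 1 to 3, against 473, 113 and 380 in WT 1 to 3. Its difference was 1.27 (SE 0.76), or 0.35 without WT 2. Cebpd and Il1r2 were lowest on DKO 1 and DKO 2, as were the summed granulocyte markers, whose part in these values was not tested.

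Inflammatory genes that glucocorticoids are known to repress had 12 tested of 20, with 0 called, where 0.00792% of all genes tested were. Of the 12, 7 were higher and 5 lower in DKO with a median of 0.09, beside 70.2% of all genes higher with a median of 0.30. Without WT 2, 5 were higher, beside 51.7% of all genes. Mmp9, a gelatinase of neutrophils and macrophages, read 1.77, 4.02 and 127 in DKO 1 to 3, against 476, 418 and 109 in WT 1 to 3, and differed by -2.70 (SE 0.91, limma adjusted p 0.822), or by -2.76 without WT 2. DKO 3 lay within the WT range, as it did for the summed granulocyte markers, whose part was not tested. Ccl5, a chemokine, differed by 0.77 (0.92 without WT 2) and Icam1, an adhesion molecule, by 1.09 (0.67 without WT 2).

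Relatives of the member proteins had 24 tested of 28, with 0 called, where 0.00792% of all genes tested were. Of the 24, 19 were higher in DKO with a median of 0.48, beside 70.2% of all genes with a median of 0.30. Without WT 2, 17 were higher with a median of 0.13, beside 51.7% of all genes with a median of 0.01. The 3 with the smallest p were all phosphatases of MAP kinases, as Dusp1 is. Dusp6 read 4551, 3309 and 1753 in DKO 1 to 3, against 1408, 173 and 1227 in WT 1 to 3, so that the groups did not overlap, as in 10.3% of all tested probe sets. It differed by 2.42 (SE 1.04, limma adjusted p 0.822), and by 1.15 without WT 2. Dusp16 differed by 1.41, and by 0.40 without WT 2, and Dusp2 by 1.64, and by 0.34 without WT 2.

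**Figure D4:**
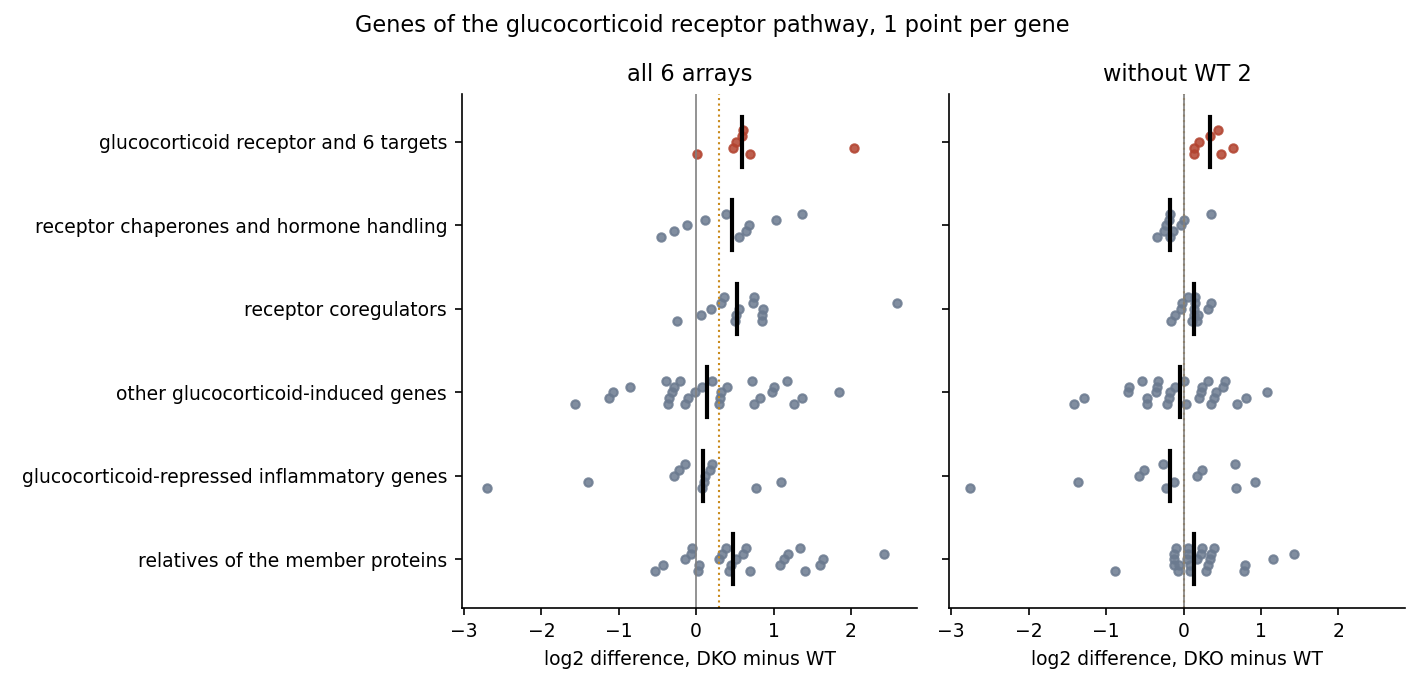
Log2 difference, DKO minus WT, of the 7 genes (red) and of the tested genes of 5 related lists (grey), 1 point per gene, with all 6 arrays (left panel) and without WT 2 (right panel). Black bars are list medians and the dotted line is the median of all genes tested, 0.30 on the left and 0.01 on the right, and most medians on the right lie nearer to 0.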

How the data were processed

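Expression was measured in 6 samples of mouse bone marrow cells, 3 DKO and 3 WT, grouped by the sample labels. The authors deposited 1 linear intensity for each probe set of an array. The submitters' processing notes name MAS5, without a version, as its source. With the highest and lowest 2% left out, the mean signal was 500.0 on every array. Detection calls and a genome build were not used here. Probe sets were named from the platform's annotation, which listed 34945 with 1 symbol, 932 with several and 9160 with none. Symbols were updated by gene identifier for 34741.

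The signal was transformed as log2(intensity + 16) and every array was centred at its own median. The filter kept probe sets whose mean exceeded percentile 40. They were fitted in limma 3.58.1 (R 4.3.3), with genotype as the single term, trended moderated variances and Benjamini-Hochberg adjustment over all 27022, as a two-sided test. The fit was tested on simulated data. A gene is represented by its probe set of highest mean signal. The members and lists were chosen with earlier results of these data known. The 12 lists cover receptor chaperones and hormone handling, receptor coregulators, other induced genes, repressed inflammatory genes, relatives of the members, and markers of pro-B and pre-B cells, granulocytes, macrophages and monocytes, T, NK and innate lymphoid cells, mast cells and basophils, stromal and endothelial cells, and plasma cells. The rule for named genes took all probe sets of the members, Cry1 and Cry2, the called genes or else the 3 of smallest p in each pathway list, the brightest gene of each marker list and any a result turns on, and for Nr3c1 and targets that varied by over 2 on the log2 scale the 3 genes of most similar profile. Per1, Dntt and Rag1 were named outside this rule. Tables and plots were made in Python 3.11.15 (pandas 2.3.3, matplotlib 3.10.9). Other settings were another scaling, pseudocount, filter or variance model, array weights, each array left out and the replicate number as a block. A fit without both WT 2 and DKO 3 was added after seeing the data.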

Additional observations from a re-analysis of the deposited data

How the results depend on the processing

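Values are log2 differences, DKO minus WT. No member probe set was called in any of the 19 other settings, with adjusted p of 0.0627 to 0.999, and of 338 values 303 kept their direction and 35 reversed. WT 2 limits every comparison, the p-values rest on 3 arrays a group, and without detection calls dim probe sets have no stated background. Over all probe sets 2 were called. The count was 0 after quantile normalization, with no centring, with centring over the tested probe sets and at a pseudocount of 1, and it was 1 with the filter at percentile 60 and with robust variances. It was 922 with array weights, estimated gene by gene because the default estimate did not converge, and 5 without WT 2 after quantile normalization. With the replicate block it was 0. Deviations from the genotype mean correlated at -0.151, -0.002 and 0.334 for same-numbered arrays, and at -0.393 to 0.317 for the other pairs. WT 2 enters the mean behind every WT deviation, so these values cannot decide whether the numbers pair the arrays. With 1 array left out the count of called probe sets was 0 to 7 (7 without WT 2). It was 1099 without both WT 2 and DKO 3, a setting added after seeing the data. The cause of these changes was not tested. After quantile normalization Tsc22d3 1425557_x_at was -0.27, Klf9 1456341_a_at -0.30 and Hspa8 0.05. With no centring, and then with centring over the tested probe sets, Nr3c1 1431378_at was -0.19 and -0.17, Tsc22d3 1425557_x_at -0.17 and -0.15, Fkbp5 1448231_at -0.12 and -0.10, Klf9 1456341_a_at -0.29 and -0.27, and Zbtb16 -0.30 and -0.28. At a pseudocount of 64 Klf9 1456341_a_at was -0.08. With array weights Nr3c1 1421867_at was -0.04, Nr3c1 1457635_s_at 0.20, Fkbp5 1448231_at -0.02 and Stip1 -0.16. Without WT 2 after quantile normalization Nr3c1 1431378_at was -0.03, Nr3c1 1457635_s_at 0.12, Fkbp5 1448231_at -0.34, Hspa8 0.02 and Stip1 -0.16. With 1 array, or both WT 2 and DKO 3, left out, the ranges were -0.09 to 0.37 for Nr3c1 1431378_at, -0.36 to 0.39 for Nr3c1 1457635_s_at, -0.11 to 1.04 for Tsc22d3 1425281_a_at, -0.05 to 0.97 for Fkbp5 1416125_at, -0.72 to 0.85 for Fkbp5 1448231_at, -0.00 to 0.79 for Klf9 1436952_at, -0.33 to 0.78 for Klf9 1456341_a_at, -0.14 to 0.14 for Zbtb16 and -0.50 to 2.25 for Stip1. Of the 15 named list genes, Hspa8 and Stip1 reversed in 6 values. Cebpd (-2.30), Mmp9 (-3.91) and Dusp6 (1.35) were called with array weights, and Mmp9 (-3.81) and Dusp6 (1.45) without both WT 2 and DKO 3.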
